A study of Mus musculus with 5 samples.

Results

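Collagens are the fibrous and sheet-forming proteins of the extracellular matrix, and each is built from 3 polypeptide chains wound into a triple helix. The genes described here were all those in the deposited tables whose mouse symbol has the form Col, digits, a, digits, as in Col1a1. There were 44 of them among 51912 gene IDs, covering 27 collagen types. By chain type, 11 were fibrillar, 6 were the type IV chains of the basement membrane, and 27 were of other types. RNA came from tissue labelled mouse dorsolateral prostate, taken from 5 males aged 7 months. All 5 carried floxed Ghr alleles (Ghrflox/flox), Ghr being the growth hormone receptor gene, and SV40 C3(1) T-antigen+/0, a viral oncogene under a promoter used to drive prostate tumours. All received 250 mg/kg tamoxifen for 5 days, with tissue taken 1 month after the final dose. The 3 Ghr deletion mice also carried ROSA26Cre-ERT2+/0, a tamoxifen-activated recombinase expressed from a broadly active locus. The 2 tamoxifen controls had no Cre on their labels, so loss of Ghr and presence of Cre cannot be told apart.

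Fibrillar collagens, mainly types I, III and V in soft tissue, are made by fibroblasts and give tissue its tensile strength. Type IV chains form the sheet-like network under epithelium, around vessels and around muscle cells. The remaining types link, coat or anchor these structures, as type VI does around cells and type VII below epithelium. In the prostate, glands sit on a basement membrane inside a stroma of smooth muscle and fibroblasts.

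Values are given in the order control replicates 1 and 2, then deletion replicates 1, 2 and 3, with 1 mouse per library. The libraries held between 13812454 and 47656212 counts. Between 8667 and 22964 of these fell on collagen genes. That was 0.0429% of control replicate 1 (95% Wilson interval 0.0423% to 0.0435%) and 0.117% of control replicate 2 (0.116% to 0.119%). In the deletion libraries it was 0.0680% (0.0670% to 0.0689%), 0.0229% (0.0224% to 0.0233%) and 0.0687% (0.0678% to 0.0696%) for replicates 1, 2 and 3. These intervals cover counting error only. A set of 7 seminal vesicle genes took 34.2% and 2.77% of the controls' counts against 27.4%, 28.7% and 1.43% of those of the deletion mice. Pbsn, which encodes the prostate secretory protein probasin, had 411 and 1 counts in control mice against 4, 8 and 3 in deletion mice, and the prostate markers Hoxb13 and Msmb were at 0 in some libraries. Pbsn, a defining marker of the labelled tissue, was thus near absent from 4 of the 5 libraries. CPM are counts scaled to library size by TMM, which allows for a few abundant genes, and are used below to compare libraries. The TMM factors were 0.491 and 1.5 for control mice against 1, 0.843 and 1.61 for deletion mice. Which libraries lie above others in CPM depends on these factors. TPM are the authors' length-corrected values and are used to compare genes. Apart from Col16a1, TPM of a gene was not compared between libraries, since summed collagen TPM was 32.3 and 207 in the 2 controls, against 874 and 785 summed CPM.

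No collagen gene passed the comparison of deletion with control libraries. The test was edgeR's quasi-likelihood test with Benjamini-Hochberg adjustment over 18615 genes, and 0 genes of any kind passed (0% of those tested), with an adjusted p between 0.985 and 0.999 for collagens. Fold changes below are therefore measurements without a call. Of the 44 collagens, 38 had enough counts to be tested. Col2a1, Col9a1, Col9a2, Col9a3, Col22a1 and Col25a1 did not, and the lists below leave them out. At an unadjusted p under 0.05 there were 7 lower and 0 higher collagens, where 3.23% of all genes tested were lower and 1.69% higher at that level. DESeq2 passed 0 collagens after adjustment, against 0.968% of all genes with an adjusted p, and had 9 at an unadjusted p under 0.05, against 6.90% of all genes. Limma-voom passed 0.

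By fold change, 31 of the 38 tested collagens had lower values in the deletion libraries, where 49.6% of all genes tested did. In 14 of the 38, all 3 deletion libraries lay below both controls, which was 36.8% of those tested beside 10.2% of all genes. In 2 of the 38, Col10a1 and Col20a1, all deletion libraries lay above both controls, beside 9.43% of all genes. The median log2 fold change was -1.11 for fibrillar chains, -0.49 for type IV chains and -0.70 for other chains, and 0.00 for all genes tested. Collagen genes share libraries and cell sources, so these counts are not separate observations, and the filter on low counts favours genes present in at least 1 group. In bulk tissue, fewer collagen-making cells and less collagen RNA per cell cannot be told apart.

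**Figure D1:**
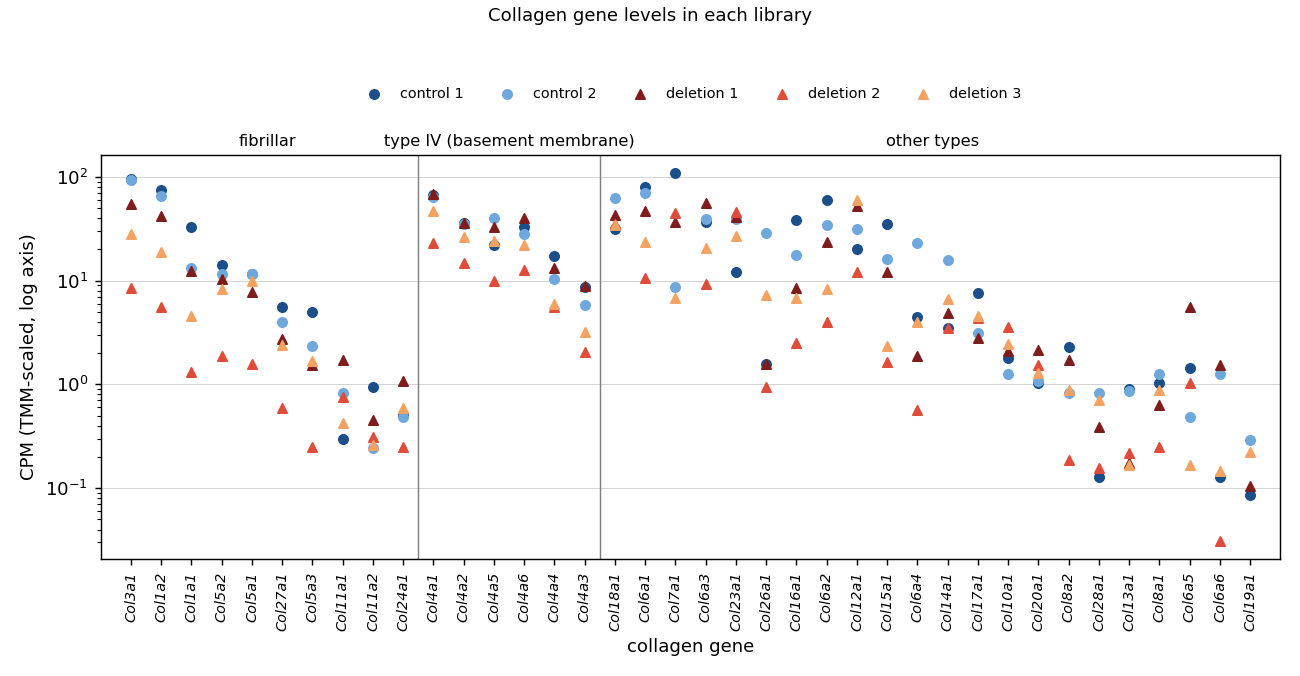
Each point is the CPM of a tested collagen gene in 1 library, on a log axis. Circles are the 2 tamoxifen controls and triangles the 3 Ghr deletion libraries, and genes are ordered within each class by mean TPM. Deletion replicate 2 is the lowest library for 26 of the 38 genes, and 1 value of 0, Col19a1 in that library, is not drawn.

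Deletion replicate 2 had the lowest values for most collagens. It was the lowest of the 5 libraries for 26 of the 38 tested collagens, while it was lowest for 31.4% of all genes tested. It was lowest for 8 of 10 fibrillar chains, for 6 of 6 type IV chains and for 12 of 22 others. Without it the medians were -0.82 for fibrillar, -0.19 for type IV and -0.41 for other chains.

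The fibrillar group was led by type III and type I chains. Col3a1 makes the single chain of type III collagen and is often laid down with type I. It lies on the plus strand of chromosome 1 from 45311538 to 45349706 (GRCm38). Its levels were 96.0 and 92.7 CPM in control mice against 54.4, 8.43 and 28.0 CPM in deletion mice. In CPM the controls were nearly equal and above every deletion library, while the deletion libraries spread widely, with replicate 2 lowest. By library totals alone, without the TMM factors, deletion replicate 1 (1552 of 28536636 counts) lay above control replicate 1 (2244 of 47656212). The group means were 94.4 ± 2.33 CPM (SD, n = 2) and 30.3 ± 23.1 CPM (SD, n = 3), which edgeR fitted as a log2 fold change of -1.64 with an SE of 0.670 and a 95% interval from -3.24 to -0.04 (adjusted p = 0.991).

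Type I collagen, the main fibre of most tissues, joins 2 chains from Col1a1 with 1 from Col1a2. Col1a2 (chromosome 6, 4504814 to 4541544) read 75.3 and 65.7 CPM in control mice against 41.7, 5.58 and 18.9 CPM in deletion mice. The fitted log2 fold change, -1.68 (SE 0.720), had a 95% interval from -3.40 to 0.05. Col1a1 (chromosome 11, 94936224 to 94953042) read 32.7 and 13.2 CPM against 12.3, 1.32 and 4.57. Both type I genes had every deletion library below both controls, but for Col1a1 the margin between control replicate 2 and deletion replicate 1 was small. The Col1a1 log2 fold change was -1.92 (SE 0.866) and became -1.12 without control replicate 1.

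Type V chains sit in the core of type I fibrils and limit their width. Col5a1 read 11.5 and 11.6 CPM in control mice against 7.82, 1.57 and 9.95 CPM in deletion mice, and Col5a2 read 14.1 and 11.7 against 10.4, 1.88 and 8.26. All deletion libraries were below both controls for each, and deletion replicates 1 and 3 lay nearer the controls than deletion replicate 2 did. The log2 fold changes of -0.84 (SE 0.711) and -0.91 (SE 0.674) became -0.38 and -0.47 without deletion replicate 2. The less abundant Col5a3 read 4.96 and 2.32 against 1.54, 0.251 and 1.67 CPM. Col27a1, a fibrillar chain known from cartilage, read 5.56 and 3.97 against 2.73, 0.595 and 2.41 CPM. Both had every deletion library below the controls.

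The remaining fibrillar chains were scarce. Col11a1, Col11a2 and Col24a1 were all under 2 CPM in each library, and their groups overlapped. Col2a1, the main cartilage collagen, was counted only in deletion replicate 2, at 2 counts. Outside this group, Col9a1 had 0 counts in all 5 libraries, which allows up to 0.0557 to 0.145 CPM (3 counts, counting error only), and Col9a2, Col9a3 and Col22a1 read at most 0.484 CPM. In all, 7 of the 10 tested fibrillar chains had non-overlapping groups, each lower in the deletion libraries, where 10.2% of all genes tested were.

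Col3a1 and Col5a1 share this arrangement of groups but have unlike sequence before their starts, which is why both are shown. The stretches are the 250 bases upstream of the RefSeq start on the gene's strand (GRCm38.p6), chr1:45311288-45311537 for Col3a1 and chr2:27886175-27886424 for Col5a1, with no annotated exon in either. Capitals mark a TATAAA match in the first and, on either strand, matches to GGGCGG in the second; neither holds CCAAT.
Col3a1: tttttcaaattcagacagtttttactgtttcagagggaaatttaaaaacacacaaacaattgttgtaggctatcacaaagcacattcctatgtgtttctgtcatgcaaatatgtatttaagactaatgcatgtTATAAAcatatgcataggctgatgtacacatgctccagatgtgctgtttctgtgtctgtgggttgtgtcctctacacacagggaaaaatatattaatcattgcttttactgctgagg
Col5a1: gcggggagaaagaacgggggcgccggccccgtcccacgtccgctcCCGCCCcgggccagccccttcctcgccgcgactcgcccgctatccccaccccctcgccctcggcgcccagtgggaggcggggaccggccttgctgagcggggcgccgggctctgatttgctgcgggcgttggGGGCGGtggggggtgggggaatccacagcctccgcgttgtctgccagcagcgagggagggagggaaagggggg

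The Col3a1 stretch is 35.2% G and C and the Col5a1 stretch 76.4%. Of 44 collagen genes, 35 had a window in the RefSeq table, with 38 windows in all. TATAAA was found in 5 of the 38 (13.2%, beside 12.4% of all 32851 promoter windows), CCAAT in 13 (34.2%, beside 33.8%) and GGGCGG in 22 (57.9%, beside 32.7%). Median G and C content was 59.0% in the collagen windows and 52.4% in all. These matches are letters in a window and no measure of factor binding.

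Type IV chains showed smaller differences than the type I and III chains. The most abundant, Col4a1 and Col4a2, make the network found in nearly every basement membrane. Col4a1 read 66.2 and 64.1 CPM in control mice against 68.1, 22.8 and 46.6 CPM in deletion mice. Col4a2 read 36.2 and 35.3 against 35.8, 14.8 and 26.5 CPM. For both, deletion replicate 1 lay at the control level and deletion replicate 2 well below it, so the groups overlapped. The log2 fold changes were -0.51 (95% interval -1.59 to 0.57) and -0.48 (95% interval -1.43 to 0.48). Without deletion replicate 2 they were -0.18 and -0.20.

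Col4a1 and Col4a2 lie head to head on chromosome 8. In the GENCODE M21 annotation the Col4a2 start at 11312805 (plus strand) and the Col4a1 start at 11312826 (minus strand) overlap by 22 bases. Col4a4 and Col4a3 start 71 bases apart on chromosome 1, and Col4a6 and Col4a5 start 1308 bases apart on chromosome X. Both shared stretches are shown from the plus strand because each lies between or across the starts of a chain pair whose levels are set side by side here, and capitals mark GGGCGG. They lie at chr8:11312805-11312826 and chr1:82586850-82586920 (GRCm38.p6).
Col4a2 and Col4a1 overlap: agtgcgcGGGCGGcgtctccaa
Col4a4 to Col4a3 gap: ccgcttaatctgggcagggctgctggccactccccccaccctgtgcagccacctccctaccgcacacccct

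Col4a3 and Col4a4 encode chains of the network best known from the kidney filter. Col4a3 read 8.77 and 5.86 CPM in control mice against 8.80, 2.07 and 3.23 CPM in deletion mice. Col4a4 read 17.3 and 10.4 against 13.2, 5.51 and 6.0 CPM. Both were high in control replicate 1 and deletion replicate 1 and low in deletion replicates 2 and 3. Col4a5 and Col4a6 encode chains that join in smooth muscle and some epithelial basement membranes. Col4a5 read 21.9 and 40.2 against 33.2, 9.93 and 23.9 CPM, and Col4a6 read 33.2 and 28.2 against 40.5, 12.7 and 21.8. Groups overlapped for each of the 6 type IV chains, and their log2 fold changes ran from -0.75 to -0.30, with 95% intervals that all included 0.

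**Figure D2:**
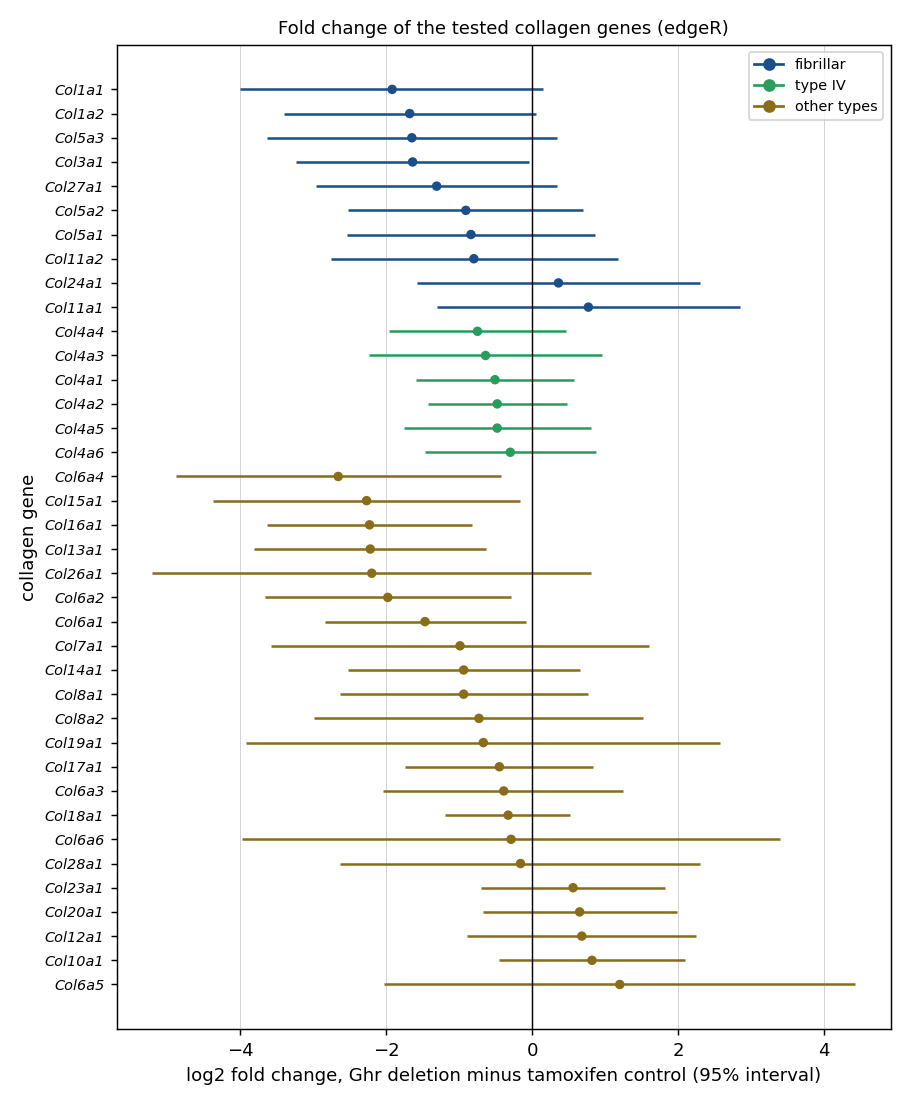
Points are edgeR log2 fold changes of the 38 tested collagens, Ghr deletion minus tamoxifen control, with 95% intervals. Fibrillar chains run from -1.92 to 0.77, type IV chains from -0.75 to -0.30 and other chains from -2.66 to 1.20, and none of the 38 passed after adjustment.

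Type VI collagen forms beaded filaments close to the cell surface, from chains of Col6a1, Col6a2 and Col6a3. Col6a1 (chromosome 10, 76708792 to 76726168) read 80.4 and 69.6 CPM in control mice against 47.2, 10.5 and 23.8 CPM in deletion mice. Col6a2 (chromosome 10, 76595762 to 76623630) read 59.9 and 34.6 against 23.6, 4.01 and 8.37 CPM. Every deletion library lay below both controls for these 2 genes. The log2 fold changes were -1.47 (SE 0.575, 95% interval -2.84 to -0.09) and -1.98 (SE 0.707, 95% interval -3.67 to -0.29), with an edgeR adjusted p = 0.991 for both.

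Col6a3 did not separate the groups as its partners did. It read 36.3 and 38.8 CPM in control mice against 56.4, 9.21 and 20.4 CPM in deletion mice, so deletion replicate 1 was the highest library of all. Deletion replicates 2 and 3 lay below both controls. The Col6a3 log2 fold change was -0.39 (SE 0.688), 0.03 without deletion replicate 2 and -1.32 without deletion replicate 1. Col6a4, one of the type VI chain genes on chromosome 9, read 4.49 and 22.8 CPM in control mice against 1.86, 0.564 and 3.99 CPM in deletion mice. Control replicate 2 was the high library there. The Col6a4 log2 fold change was -2.66 (SE 0.934), the lowest of the 38 tested collagens, and -1.07 without control replicate 2. Col6a5 and Col6a6, also on chromosome 9, stayed under 6 CPM in each library with overlapping groups.

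Multiplexins are basement membrane zone collagens that can release endostatin-like fragments. Col15a1 read 35.2 and 16.3 CPM in control mice against 12.0, 1.66 and 2.36 CPM in deletion mice, all below both controls (log2 fold change -2.27, SE 0.878). That fold change was -3.66 without deletion replicate 1 and -1.61 without control replicate 1. Col18a1, the endostatin precursor, read 31.4 and 62.9 against 42.8, 35.1 and 34.4 CPM, with the deletion libraries between the 2 controls. Within libraries, Col18a1 had the highest TPM of all collagens in deletion replicate 3, Col7a1 in deletion replicate 2, and Col3a1 in both controls and deletion replicate 1.

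FACIT collagens attach to the surface of fibrils. Col16a1, which is found near basement membranes and fibrils, had the smallest p of all collagens. It read 38.2 and 17.5 CPM in control mice against 8.55, 2.51 and 6.74 CPM in deletion mice. The groups were 27.8 ± 14.6 CPM (SD, n = 2) and 5.93 ± 3.10 CPM (SD, n = 3), and no deletion library reached a control. In edgeR this was a log2 fold change of -2.23 (SE 0.590, 95% interval -3.64 to -0.82) with an unadjusted p = 0.00766 and an adjusted p = 0.985. DESeq2 gave it an adjusted p = 0.0572. Col14a1 read 3.47 and 15.7 against 4.84, 3.51 and 6.64 CPM, where only control replicate 2 stood apart. Col20a1 read 1.03 and 1.07 against 2.14, 1.53 and 1.28 CPM, each deletion library above the controls by a small amount.

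Among transmembrane collagens, Col13a1, found at cell adhesions and nerve-muscle contacts, read 0.898 and 0.871 CPM in control mice against 0.175, 0.219 and 0.167 CPM in deletion mice. The counts behind these values were 21 and 18 in control mice against 5, 7 and 9 in deletion mice. Replicates lay close together within each group, at a log2 fold change of -2.22 (SE 0.662), and the value stayed between -2.35 and -2.15 when any 1 library was left out. A pseudogene on the opposite strand overlaps Col13a1, and the strand setting of the counting is not given in the sources used here. Col17a1, a hemidesmosome collagen of basal epithelial cells, read 7.57 and 3.10 against 2.77, 4.32 and 4.58 CPM with overlapping groups.

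Anchoring fibrils below epithelium are made of type VII collagen. Col7a1 read 109 and 8.71 CPM in control mice against 37.0, 45.1 and 6.79 CPM in deletion mice. It was high in control replicate 1 and deletion replicates 1 and 2, the 3 libraries with 27.4% to 34.2% of counts in seminal vesicle genes, and low in control replicate 2 and deletion replicate 3, which had 2.77% and 1.43%. The 7 seminal vesicle genes were not alike in these libraries. Svs2 read 193000 and 2210 CPM in control mice against 192000, 270000 and 1750 CPM in deletion mice. Svs1 read 78200 and 171 against 6.2, 0.0626 and 9.63 CPM. In 4 of the 7 all deletion libraries lay below both controls, beside 10.2% of all genes. DESeq2 called 4 of the 7, against 0.968% of all genes with an adjusted p. The part of seminal vesicle content in the Col7a1 values was not tested. The log2 fold change of -0.99 (SE 1.08) turned to 1.77 without control replicate 1.

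Some other collagens also separated the libraries along lines other than the groups. Col26a1 read 1.58 and 28.7 CPM in control mice against 1.58, 0.940 and 7.28 CPM in deletion mice, high in control replicate 2 and deletion replicate 3. Its log2 fold change of -2.20 (SE 1.25) turned to 1.04 without control replicate 2. Col25a1, a brain-enriched transmembrane chain short of the low-count filter, had 6 and 3 counts in control mice against 6, 2 and 209 in deletion mice. Deletion replicate 3 was also the library with Upk3a, a bladder lining gene, at 19.4 CPM, and Upk3a was at 0 in the others. Upk1b, of the same list, was found in every library, at 23.9 to 97.8 CPM. Upk1a read 0.299 and 0.484 CPM in control mice against 0.386, 0.689 and 26.1 CPM in deletion mice. Upk2 read 2.40 and 0.823 against 0.631, 0.564 and 5.12 CPM. The 4 bladder lining genes summed to 79.9 and 25.2 CPM in control mice against 47, 68.4 and 148 CPM in deletion mice. The part of bladder tissue in the Col25a1 counts was not tested. The network chain Col10a1, typical of growth-plate cartilage, read 1.80 and 1.26 against 2.10, 3.54 and 2.47 CPM, each deletion library above the controls. It lies inside Nt5dc1 on the opposite strand, so reads of the pair may not be separated. Col8a1, a network chain of vessel walls, read 1.03 and 1.26 against 0.631, 0.251 and 0.891 CPM, each deletion library below the controls. Groups overlapped for the remaining tested chains, Col8a2, Col19a1, Col23a1 and Col28a1.

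Ratios within a library do not depend on how libraries are scaled, so they were read in TPM. Each ratio below divides the TPM of the first gene by that of the second. The groups overlapped in each of the 5 partner pairs listed for this purpose. Col4a1 to Col4a2 was 1.96 and 2.16 in control mice against 2.30, 1.64 and 1.37 in deletion mice. Col4a4 to Col4a3 was 1.71 and 1.82 against 1.81, 1.23 and 1.57. The third head-to-head pair, Col4a6 to Col4a5, was at 1.57 and 0.710 against 1.24, 1.16 and 0.877. Col1a2 to Col1a1 was 2.65 and 5.77 against 3.58, 1.44 and 3.62, and the length the authors' RSEM assigned to Col1a1 was 1836 bases in deletion replicate 2 against 3349 to 5543 in the others. Col6a1 to Col6a2 was 1.38 and 2.15 against 2.09, 2.81 and 3.10.

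Further ratios, among them that of the type VI partners Col6a3 and Col6a2, were chosen after their values were seen and are given as descriptions. Col6a3 to Col6a2 was 0.439 and 0.957 in control mice against 2.27, 2.24 and 2.32 in deletion mice. The deletion libraries differed by little although their Col6a2 levels ranged from 4.01 to 23.6 CPM. In counts, which do not use RSEM's transcript lengths, the same ratio was 0.607 and 1.12 against 2.39, 2.30 and 2.44. Col4a1 to Col3a1, a ratio of the leading basement membrane chain to the leading fibrillar chain, was 0.579 and 0.750 against 0.995, 2.36 and 1.05. It was higher in each deletion library than in both controls, and in counts it was 0.689 and 0.692 against 1.25, 2.70 and 1.66. Col12a1, a FACIT chain of fibril surfaces, to Col3a1 was 0.0607 and 0.110 against 0.220, 0.345 and 0.483. Col5a2 to Col5a1 was 1.48 and 1.46 against 1.80, 1.12 and 0.851, with overlapping groups. Col3a1 to Col1a2 was 1.78 and 2.06 against 2.07, 2.69 and 2.22 in TPM, without overlap, and 1.27 and 1.41 against 1.3, 1.51 and 1.48 in counts, with overlap. Col12a1 itself read 20.0 and 31.5 CPM against 51.8, 12.1 and 59.6 CPM.

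**Figure D3:**
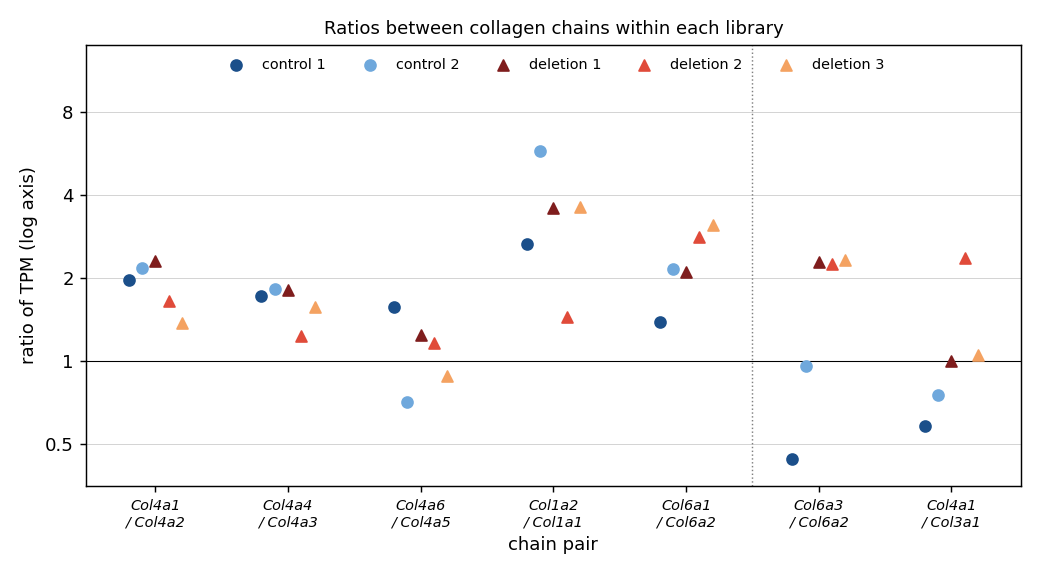
Each point is the ratio of TPM of 2 collagen genes in 1 library, on a log axis, with circles for controls and triangles for deletion libraries. The 5 pairs left of the dotted line are listed partner chains, and the pairs on the right were chosen after their values were seen. Col6a3 to Col6a2 lies between 2.24 and 2.32 in the deletion libraries and at 0.439 and 0.957 in the controls.

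Summed by class, fibrillar chains made up 29.6% and 24.7% of collagen TPM in control mice against 23.1%, 7.79% and 20.0% in deletion mice. Type IV chains made up 19.2% and 22% against 27.5%, 22.3% and 26.3%. Each deletion library thus had a lower fibrillar share and a higher type IV share than both controls, though by little for the type IV share of deletion replicate 2. In summed CPM, fibrillar chains stood at 242 and 203 in control mice against 134, 21.0 and 75.1 in deletion mice. Type IV chains stood at 184 in each control and at 200, 67.7 and 128 in the deletion libraries.

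**Figure D4:**
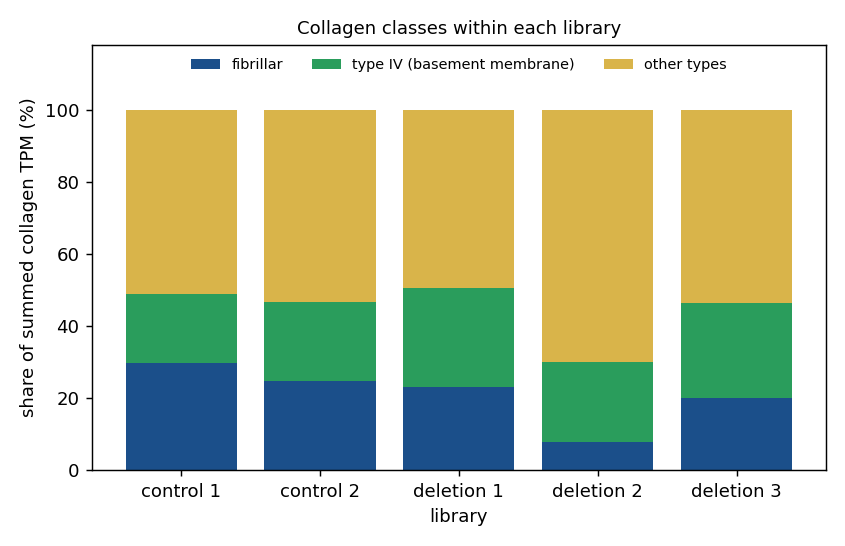
Stacked bars give the share of summed collagen TPM taken by fibrillar, type IV and other chains in each library. The fibrillar share is 29.6% and 24.7% in control mice against 23.1%, 7.79% and 20.0% in deletion mice, with the smallest in deletion replicate 2.

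RSEM also reports a mean transcript length for each gene and library, weighted by isoform. Among 35 tested collagens whose length varied, it was shorter in all deletion libraries than in both controls for 6, which was 17.1% beside 11.0% of all such genes. The 6 were Col1a1, Col3a1, Col15a1, Col4a5, Col16a1 and Col6a3. For Col16a1 the length was 3222 and 2495 bases in the controls and 1988, 1577 and 1314 bases in the deletion libraries. Its TPM ordered the libraries differently from its CPM, at 2.03 and 7.64 in control mice against 2.56, 1.13 and 11.32 in deletion mice. For Col15a1 the length was 3903 and 3564 against 3041, 1346 and 2477 bases. Isoform tables were not used here.

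Cell type markers were read beside the collagens. Of all genes tested, 49.6% were lower by fold change and 10.2% had all deletion libraries below both controls. The 8 fibroblast markers, none of them a collagen, had lower values in the deletion libraries by fold change in 8 of 8, at a median of -1.38, and groups did not overlap for 4 (Dpt, Thy1, Pi16 and Mfap5). Their summed level was 148 and 380 CPM in control mice, with deletion replicates 1 and 3 between these values and deletion replicate 2 below them at 68.1 CPM. The 8 endothelial markers were lower in 8 of 8, at a median of -1.0 with 6 non-overlapping, and summed to 86.9 to 117 CPM against 38.8 to 55.4. The 8 smooth muscle markers had a median of -0.06 with overlapping groups throughout, at 1850 to 3170 CPM against 1220 to 4500. They were highest in deletion replicate 1 and lowest in deletion replicate 2, the same 2 libraries that were highest and lowest for summed type IV chains. The 4 basal epithelial markers summed to 62.4 to 85.8 CPM against 15.9 to 84.0, and Krt14 and Krt15 among them had all deletion libraries below both controls. Groups overlapped for the other basal markers, Krt5 and Trp63, each highest in deletion replicate 3. The 5 Schwann cell markers summed to 24.0 to 27.3 CPM against 17.0 to 30.9, with Sox10 at 0 in control replicate 1, and the 4 skeletal muscle markers to 6.63 to 33.2 CPM against 3.63 to 65.7, with Myh4 at 0 in 2 libraries. No marker of these 6 lists was called by the edgeR test, and DESeq2 called Krt15 (adjusted p = 0.017). The part of cell content in the collagen values was not tested.

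**Figure D5:**
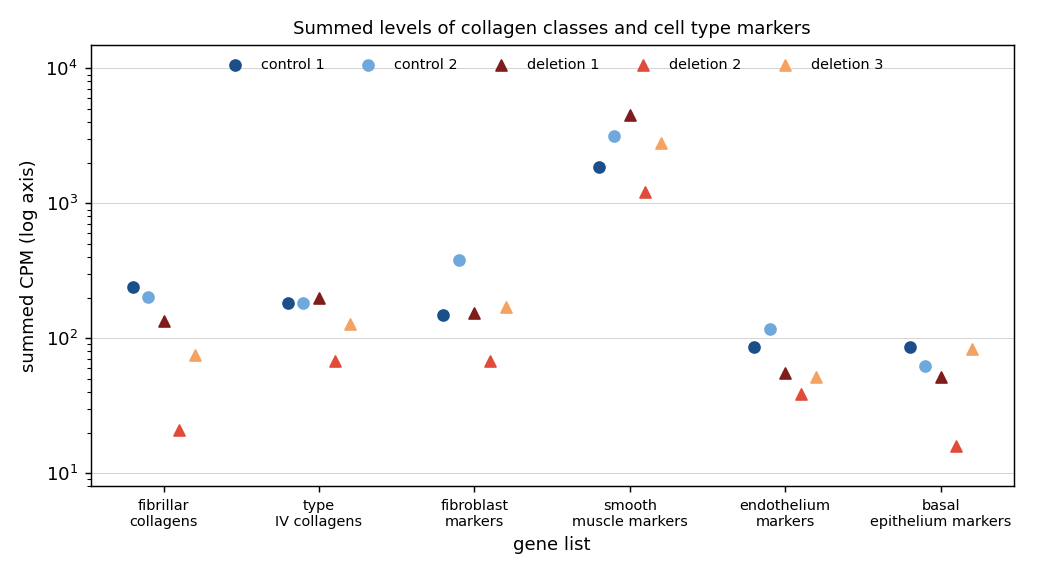
Summed CPM of 2 collagen classes and 4 marker lists, 1 point per library on a log axis, with circles for controls and triangles for deletion libraries. Deletion replicate 2 is the lowest library in each of the 6 columns, at 21.0 CPM for fibrillar collagens and 68.1 CPM for fibroblast markers.

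The genes that make and handle collagen were taken from 6 lists, and no member of any was called by edgeR, which called 0% of all genes. Of the 21 genes of synthesis and folding inside the cell, 20 were tested and 15 were lower by fold change, at a median of -0.50. Groups did not overlap for 5, all lower, which is 25.0% beside 10.2% of all genes. P4hb, the shared subunit of the prolyl hydroxylase, read 1360 and 866 CPM in control mice against 864, 1310 and 749 CPM in deletion mice. Ppib, a folding isomerase, read 217 and 236 CPM in control mice, 187 and 190 CPM in deletion replicates 2 and 3 and less in deletion replicate 1. Mia3, which exports procollagen from the endoplasmic reticulum, read 144 and 107 against 116, 149 and 93.8 CPM. The catalytic subunits of that hydroxylase, P4ha2 and P4ha1, had the smallest p, at 13.4 and 7.55 against 3.40, 4.13 and 6.89 CPM and at 29.3 and 12.1 against 11.4, 5.98 and 13.7 CPM. Only P4ha2 of the 2 had non-overlapping groups.

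Of 14 genes that cleave and crosslink collagen outside the cell, 12 were tested, at a median of -0.72, and 5 had all deletion libraries below both controls (41.7%, beside 10.2% of all genes). Adamts2, which removes the amino-terminal propeptide of fibrillar procollagen, read 6.33 and 7.12 CPM in control mice against 1.58, 0.564 and 3.04 CPM in deletion mice. Loxl2, a lysyl oxidase that acts on type IV collagen, read 5.39 and 4.84 against 2.07, 1.06 and 2.65 CPM. Both had log2 fold changes below -1, at -1.95 and -1.40. Bmp1, which removes the other propeptide, read 9.24 and 6.97 against 8.94, 2.13 and 5.22 CPM. Pxdn, the peroxidase that crosslinks type IV collagen, read 8.43 and 15.6 against 20.9, 5.14 and 13.7 CPM. Pcolce, an enhancer of propeptide removal, read 7.19 and 4.07 against 4.07, 0.752 and 2.97 CPM. It is among the 5 non-overlapping genes, although control replicate 2 and deletion replicate 1 were equal as printed.

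Collagen receptors had a median log2 fold change of -0.22 over 9 of 10 genes, and 2 had non-overlapping, lower groups (22.2%, beside 10.2% of all genes). Itgb1, the shared integrin subunit, read 238 and 320 CPM in control mice against 259, 334 and 320 CPM in deletion mice, its partner Itga1 read 57.9 and 97.2 against 109, 38.3 and 102 CPM, and the tyrosine kinase receptor Ddr1 read 20.5 and 46.1 against 23.2, 36.2 and 28.2 CPM. Groups overlapped for these 3. The non-overlapping pair was Mrc2, a receptor that takes up collagen, at 3.85 and 3.29 against 2.63, 0.564 and 1.04 CPM, and Itga11, a fibroblast integrin, at 0.428 and 0.629 against 0.280, 0.0940 and 0.241 CPM. Itga11 rested on few reads, at 10 and 13 counts in control mice against 8, 3 and 13 in deletion mice.

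Genes of collagen breakdown and its inhibitors had a median of -0.42 over 9 of 10 genes, 3 of them non-overlapping and lower (33.3%, beside 10.2% of all genes). Mmp2, a gelatinase, read 19.2 and 25.0 CPM in control mice against 14.8, 2.41 and 4.88 CPM in deletion mice. Timp1, an inhibitor of these proteases, read 17.6 and 5.08 against 0, 0.626 and 1.60 CPM. Both were below the controls in each deletion library. The inhibitors Timp2, at 35.6 and 74.8 against 44.2, 13.8 and 82.8 CPM, and Timp3, at 99 and 199 against 75.1, 69.7 and 181 CPM, had overlapping groups. So did the membrane protease Mmp14, at 19.0 and 44.9 against 25.4, 31.6 and 27.3 CPM.

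The non-collagen parts of the basement membrane, the laminins, nidogens, agrin and perlecan, had a median of -0.67 over 15 genes, and 14 were lower by fold change. In 8 of the 15 (53.3%, beside 10.2% of all genes) all deletion libraries lay below both controls. Lamc1, the widespread laminin gamma chain, read 124 and 126 CPM in control mice against 88.1, 81.1 and 81.7 CPM in deletion mice. Lama2, the muscle laminin chain, read 56.6 and 65.8 against 31.3, 6.58 and 25.2 CPM. Both had separate groups. Lamb2 read 99.5 and 98.9 against 108, 88.6 and 88.8 CPM, and Lama5, the main laminin alpha chain of adult epithelium, 61.1 and 145 against 81.6, 61.9 and 126.

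Transforming growth factor beta is the best known inducer of fibrillar collagen. Its list had a median of -0.15 over 11 genes, with 1 lower and 1 higher gene of non-overlapping groups, near the background of 10.2% and 9.43%. The higher gene was Smad3, a factor that carries the signal to the nucleus, at 28.3 and 27.8 CPM in control mice against 44.7, 71.9 and 48.9 CPM in deletion mice. The receptor gene Tgfbr1 read 71.8 and 163 against 112, 136 and 129 CPM, Smad4 88.4 and 66.7 against 58.4, 89.2 and 62.5, and Smad2 28.4 and 30.4 against 26.6, 39.7 and 35.3. Groups overlapped for the last 3.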

How the data were processed

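Per the labels' protocols, stranded total RNA libraries were made from frozen tissue. Reads went through bcl2fastq 2.20.422, STAR 2.5.3a and RSEM 1.3.0 on build GRCm38, as far as the submitters' processing notes name tools. Which annotation and strand setting they used is not given in the sources used here. Per the file headers, the authors deposited expected counts, which are not normalized, TPM, and the mean transcript length and effective length in bases (other columns), in 1 table per library.

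Symbols came from the gene name table (99.5% of 51912 IDs matched), positions from GENCODE M21 and promoters from RefSeq GRCm38.p6. Expected counts were rounded. The model, in edgeR 4.0.16 under R 4.3.3, held all 5 libraries and the group alone: filterByExpr, TMM, robust glmQLFit, then glmQLFTest, Benjamini-Hochberg adjusted over 18615 genes, threshold 0.05. DESeq2 1.42.0, limma-voom (limma 3.58.1), other scalings, no filter, a replicate block and left-out libraries were alternatives. The fit was tested on simulated data. Precision was limited by the spread between libraries of a group, with a median SE of 0.529 (log2) over genes. A count of 3 stood for 0.0557 to 0.145 CPM. Named genes were 18 listed collagens, the 10 further ones of smallest p, and per pathway list the 3 of highest mean TPM and the 2 of smallest p. Some genes this rule names are not reported here. Col6a5, Col12a1, Col25a1 and the second set of ratios were named after their values were seen. Members, lists and alternatives were chosen with earlier results of these data known.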

Additional observations from a re-analysis of the deposited data

How the results depend on the processing

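The count of collagens past the threshold was 0 in 13 of 14 alternatives. The exception, 2 collagens, came from leaving out control replicate 1 together with deletion replicate 3, a fit of 1 control against 2 deletion libraries that assumes the lone control varies like the others: Col6a4 (-4.23, adjusted p = 0.0357) and Col26a1 (-4.51, adjusted p = 0.0046). Counts over all genes were 46 with library totals only, 166 with DESeq2, 8 with the replicate block, 85 without control replicate 1 and deletion replicate 3, 546 without control replicate 2 and deletion replicate 3, and 0 to 48 with 1 library left out. The medians ran from -1.50 to -0.82 (fibrillar), -0.88 to -0.19 (type IV) and -1.08 to 0.25 (other types) with 1 library left out, the last without control replicate 2. With library totals only, where the median of all genes was 0.227, they were -0.70, -0.28 and -0.42. The counts of non-overlapping groups rest on the TMM scaling and were not recounted with library totals only. By library totals alone, deletion replicate 1 lay above control replicate 1 for Col3a1, Col1a2, Col5a1, Col5a2 and Col6a1.

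Of 28 named collagens, 20 kept their sign in every alternative. The alternatives reuse the same libraries, and 10 of the 28 were named for a small p in the main fit. The share of all genes keeping their sign was not counted, so this count is no separate support. The sign changed for Col7a1 (-1.88 to 1.77 with 1 library left out, 0.39 with the replicate block, 2.23 without control replicate 1 and deletion replicate 3), Col17a1 (-0.96 to 0.33, 0.14 with library totals, 0.19 without that pair), Col4a5 (-0.86 to 0.02, and 0.00 without control replicate 2 and deletion replicate 3), Col14a1 (-1.65 to 0.52, 0.29 without that pair), Col18a1 (-0.75 to 0.25, 0.33 without it), Col26a1 (-3.60 to 1.04), Col4a6 (-0.82 to 0.02) and Col6a3 (-1.32 to 0.03). The cause was not tested. The replicate block gave 0 collagens past the threshold and medians of -1.78, -0.68 and -0.78. Same-numbered libraries deviated together at a correlation of 0.131 for number 1 and -0.136 for number 2. With 2 controls, the deviations from their mean mirror each other, so these are not separate checks. They cannot tell whether same-numbered libraries share more than a number.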
